A study of Homo sapiens and Mus musculus with 7 samples.

Results

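The comparison described here set the control cells of a pair of human cancer lines side by side at baseline: HeyA8, labelled as an ovarian cancer line, and HepG2, labelled as a liver cancer line. Its members were the 2 arrays whose samples carried the pLKO control, chosen by their labels from 7 arrays in the series. The other 3 human arrays served as a check: HeyA8 with the FAS hairpin shRNA4, HeyA8 with the FAS hairpin shRNA6, and HepG2 with the FAS hairpin shRNA6, each described in the labels as a stable knockdown. All 5 human samples were cultured cells, so the control was not an untreated parent line, and each combination of line and construct was 1 array. The label text calls the hairpin lines knockouts in one field and knockdowns in another. The remaining 2 arrays, of mouse liver, were not used. A difference between the lines was read from the control pair and then followed through the 6 possible pairs of a HeyA8 and a HepG2 array. Those pairs share arrays and are not independent of each other. Nothing in the labels says that arrays of a line came from separate cultures, so the p-values below measure the spread between these samples only, which may be technical. The line of origin, its tissue and any difference in culture or array processing between the lines cannot be told apart in this design.

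HepG2 cells are widely used as a model of the hepatocyte, the liver cell that makes most plasma proteins and carries out bile, ammonia and drug metabolism. Hepatocyte identity is kept by a network of transcription factors that includes the FOXA, HNF4 and C/EBP families, which bind one another's genes as well as the genes of plasma proteins. Carcinoma cells lie between an epithelial state, held by E-cadherin, tight junctions, desmosomes and keratins, and a mesenchymal state, with vimentin and matrix proteins. The SNAI, ZEB and TWIST factors repress E-cadherin and favour the mesenchymal state. HOX factors mark positions along the body axis, and different lineages keep different HOX genes active.

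The promoters of 6 genes are shown first, because a short sequence recurs among the promoters of lists that separated the lines. They are from RefSeq (GRCh38.p14), the 250 bases before each transcript start, written 5′ to 3′ on the strand of the gene. In the first 3, capitals mark GTTAAT on either strand, an AT-rich sequence of liver gene promoters.

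ALB, albumin, chr4:73404037-73404286, plus strand: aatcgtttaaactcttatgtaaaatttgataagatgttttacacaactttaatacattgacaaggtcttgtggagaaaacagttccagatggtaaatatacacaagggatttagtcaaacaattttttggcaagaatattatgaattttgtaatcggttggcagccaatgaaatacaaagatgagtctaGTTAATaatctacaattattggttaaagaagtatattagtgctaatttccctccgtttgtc
SERPINA1, alpha-1-antitrypsin, chr14:94388603-94388852, minus strand: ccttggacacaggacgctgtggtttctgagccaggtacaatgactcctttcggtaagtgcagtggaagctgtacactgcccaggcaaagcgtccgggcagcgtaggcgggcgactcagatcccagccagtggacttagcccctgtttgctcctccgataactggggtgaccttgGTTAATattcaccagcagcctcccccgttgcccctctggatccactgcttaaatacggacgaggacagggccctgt
APOH, beta-2-glycoprotein I, chr17:66229416-66229665, minus strand: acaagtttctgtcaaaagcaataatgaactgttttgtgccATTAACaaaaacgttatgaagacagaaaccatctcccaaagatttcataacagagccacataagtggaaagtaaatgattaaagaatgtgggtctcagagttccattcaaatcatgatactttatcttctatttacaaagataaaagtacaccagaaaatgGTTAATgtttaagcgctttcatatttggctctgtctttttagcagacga

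In the next 3, capitals mark CAGGTG on either strand, an E-box sequence that SNAI and ZEB repressors recognise.

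DSP, desmoplakin, chr6:7541421-7541670, plus strand: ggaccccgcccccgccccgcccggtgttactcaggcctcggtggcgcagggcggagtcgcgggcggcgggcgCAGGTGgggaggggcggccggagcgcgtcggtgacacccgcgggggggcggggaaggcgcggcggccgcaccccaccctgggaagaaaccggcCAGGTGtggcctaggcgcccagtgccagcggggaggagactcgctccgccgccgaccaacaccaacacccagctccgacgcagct
JUP, plakoglobin, chr17:41785977-41786226, minus strand: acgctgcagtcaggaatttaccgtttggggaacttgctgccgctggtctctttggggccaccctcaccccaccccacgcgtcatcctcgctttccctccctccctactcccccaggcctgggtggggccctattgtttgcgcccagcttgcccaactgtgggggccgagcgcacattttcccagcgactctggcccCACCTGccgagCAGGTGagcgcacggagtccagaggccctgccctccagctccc
CRB3, an apical polarity protein, chr19:6464021-6464270, plus strand: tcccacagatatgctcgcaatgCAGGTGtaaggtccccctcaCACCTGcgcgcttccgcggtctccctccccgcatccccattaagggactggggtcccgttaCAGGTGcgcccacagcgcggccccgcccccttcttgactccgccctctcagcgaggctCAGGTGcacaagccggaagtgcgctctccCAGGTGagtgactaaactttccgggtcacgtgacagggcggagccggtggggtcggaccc

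In ALB the GTTAAT began 61 bases before the start, and in SERPINA1 it began 76 bases before it. APOH held it at 49 bases on the gene strand and at 210 bases on the opposite strand. CRB3 held 5 CAGGTG sequences, the nearest beginning 60 bases before the start, and DSP and JUP held 2 each. These 6 are the kept genes of their list with the motif that were farthest apart between the lines in their closest array pair, 3 per list, with chromosomes 8 and 18 left out. Over the promoters of the hepatocyte secreted protein list, 11 of 44 (25%, from 10 of 32 genes) contained GTTAAT on either strand, against 6.23% of all 35116 promoters of the same length. The share was 17.95% for hepatocyte enzymes and transporters, 14.29% for hepatocyte transcription factors and 0% to 10% for the other lists searched. Over the epithelial junction and keratin list, 17 of 35 (48.57%, from 15 of 25 genes) contained CAGGTG, against 17.49% of all promoters. Among the other lists searched the share ranged from 7.69% for mesenchymal transcription factors to 21.43% for hepatocyte transcription factors. Base composition was not matched between the lists and all promoters. The longer sequence CAAAGTCCA, of the kind bound by HNF4 factors, was in 2 of 44 hepatocyte secreted promoters (4.55%) and in 0.32% of all. It was in 0 of 39 promoters of hepatocyte enzymes and transporters and 0 of 28 of hepatocyte transcription factors. TATAAA, the core of the TATA box, was in 38.46% of the promoters of hepatocyte enzymes and transporters and 10.72% of all. TGACTCA, the AP-1 sequence, was in 4.2% of all promoters and in 4.08% of those of the mesenchymal and matrix list. The counts took every listed gene with a RefSeq promoter, whatever its values: 32 of 42 hepatocyte secreted genes and 25 of 44 epithelial junction and keratin genes, with CDH1 and EPCAM not among them. The 5 sequences were searched on both strands, none contains another, and a match describes the letters and not a bound site.

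Each array gave 1 signal per probe set, scaled by array to a 2% trimmed mean of 500.07. Array medians were between 58.0 and 63.5. A probe set was found for 19775 genes, and 13062 of them were kept, those above the array median on either control array. Differences are HeyA8 minus HepG2 on the scale log2(signal + 12.6), which understates the differences of dim genes, so negative values mean higher in HepG2. Rank correlation across probe sets was 0.923 to 0.931 within a line and 0.792 to 0.799 between lines, as a description over probe sets of shared arrays. In the control pair 2452 genes (18.8% of those kept) were at least 2-fold higher in HeyA8 and 2721 (20.8%) at least 2-fold higher in HepG2, 39.6% in sum. In all 6 pairs, 1756 (13.4%) and 1862 (14.3%) kept a 2-fold difference in the same direction, and in 9950 genes (76.2%) the lines did not overlap. Of the genes 2-fold higher in the HeyA8 control, 71.6% were so in all 6 pairs, and of those 2-fold higher in the HepG2 control, 68.4% were. For genes above the 75th percentile of the brighter array these shares were 81.9% and 79.7%. In each direction, 24 genes 2-fold apart in the control pair were at least 2-fold apart the opposite way in the shRNA6 pair. Within a line, the arrays differed by an SD of 0.438 to 0.471 in log2 over genes, against 1.97 to 2.01 between lines.

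With 1 array per group, the control pair itself has no test. The line term of a limma fit over all 5 human arrays, with knockdown as a covariate, was used for errors and adjusted p-values (Benjamini-Hochberg over 12811 genes). It called 3889 genes (30.4%) higher in HeyA8 and 4139 (32.3%) higher in HepG2 at an adjusted p under 0.05, 62.7% of those tested. Without the HepG2 shRNA6 array, the count higher in HepG2 was 2738.

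Among the lists plotted, hepatocyte secreted proteins and mesenchymal transcription factors had medians farthest from 0, and receptors, integrins and housekeeping genes had medians close to it. The median of all kept genes was -0.07. List medians moved by over 1.5 times with the mean over probe sets for hepatocyte transcription factors (-1.92), ovarian markers (0.93) and growth factors (0.62), and with a pseudocount of 50 for epithelial junction genes (-1.29) and HOX genes (2.11). A listed gene that was kept only through the line in which it is high had to differ, so the counts below describe the lists and are to be read against the background shares. In bulk RNA, fewer cells of a type and less RNA per cell cannot be told apart.

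**Figure D1:**
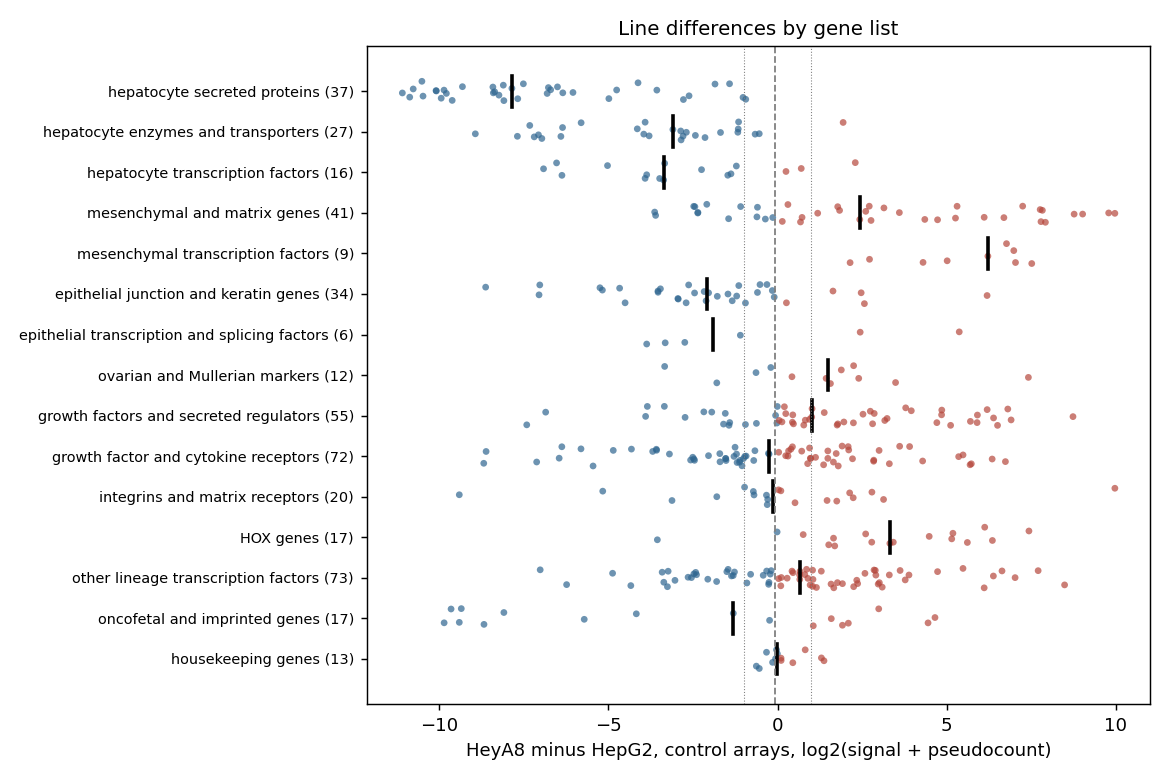
Difference between the HeyA8 and HepG2 control arrays on the log2(signal + 12.6) scale (horizontal axis) for the kept genes of 14 lists plus housekeeping genes (rows, number of kept genes in brackets). Each point is 1 gene, red where higher in HeyA8 and blue where higher in HepG2, the black bar is the list median, the dashed line the median of all kept genes, and the dotted lines mark 2-fold: hepatocyte secreted proteins have a median of -7.85 and mesenchymal transcription factors one of 6.22, while housekeeping genes centre on -0.01.

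Plasma proteins made by hepatocytes were high in HepG2 and at the bottom of the scale in HeyA8. Of 42 listed genes, 40 had a probe set and 37 were kept, with a median difference of -7.85. Of these, 36 were at least 2-fold higher in HepG2 (against 20.8% of all kept genes) and 0 were at least 2-fold higher in HeyA8 (against 18.8%). In all 6 pairs 34 held this (against 14.3%), and limma called 34 of 36 tested higher in HepG2 (against 32.3%) and 0 higher in HeyA8. Signals are given below in the order pLKO, shRNA4 and shRNA6 for HeyA8, then pLKO and shRNA6 for HepG2. TF, transferrin, which carries iron in plasma, had signals of 2.85, 2.67 and 6.19 in HeyA8 and 33676 and 33305 in HepG2. Its difference was -11.09, and the fitted line term was -11.01 ± 0.19 (SE, 5 arrays, limma adjusted p = 5.62e-08). ALB read 3.90, 20.3 and 6.77 against 28770 and 26700, a difference of -10.77. Every HeyA8 array lay below the median of its own array for these genes, and every HepG2 array was among the bright signals.

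Lipid carriers were likewise high in HepG2. APOA2, a protein of high-density lipoprotein, read 6.11, 9.56 and 2.47 in HeyA8 and 35045 and 33770 in HepG2. APOB, the structural protein of low-density lipoprotein, read 8.44, 18.8 and 74.0 against 30708 and 29682. The HeyA8 arrays differed among themselves for APOB, in a range far below HepG2. APOA1, the main protein of high-density lipoprotein, differed by -2.78 at its chosen probe set, and its 2 other kept probe sets by -8.46 and -8.15, so the size of its difference depends on the probe set. SERPINA1, an inhibitor of neutrophil elastase, differed by -10.48 (6.01, 2.64 and 19.6 against 26555 and 25358), and APOH, a plasma phospholipid-binding protein, by -9.62 (39.1, 6.82 and 4.41 against 40612 and 36697). AFP, the fetal albumin relative used as a liver tumour marker, read 88.7, 103 and 135 in HeyA8 and 27573 and 27268 in HepG2. Unlike ALB, it stayed above the array median in HeyA8.

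A few members differed less or overlapped. TTR, a carrier of thyroid hormone and retinol-binding protein, was lower in signal, at 3227 and 2786 in HepG2 and 36.4, 97.4 and 16.2 in HeyA8, and had a difference of -6.05. PLG, plasminogen, read 36.8, 71.9 and 64.0 in HeyA8 and 87.6 and 33.7 in HepG2, so the lines overlapped (limma adjusted p = 0.977). ITIH1, of the inter-alpha-trypsin inhibitor family, overlapped too (32.5, 74.1 and 3.53 against 73.9 and 165, limma adjusted p = 0.0795). SPP2, a secreted phosphoprotein, was at least 2-fold higher in HepG2 in the control pair, but HepG2 shRNA6 (32.7) was close to HeyA8 shRNA6 (31.9). Histidine-rich glycoprotein (HRG), the fetuin FETUB and SHBG, which binds sex steroids, were not kept in either line.

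Hepatocyte enzymes and transporters were mostly higher in HepG2. Of 47 listed, 39 had a probe set and 27 were kept, with a median of -3.10. The control pair put 24 at least 2-fold higher in HepG2 (against 20.8% of all kept genes) and 1 higher in HeyA8 (against 18.8%). In all 6 pairs 21 were 2-fold higher in HepG2 (against 14.3%). Limma called 23 of 27 higher in HepG2 (against 32.3% of all genes tested) and 1 higher in HeyA8 (against 30.4%). FABP1, which carries fatty acids in the hepatocyte, read 3.85, 3.99 and 2.08 in HeyA8 and 8027 and 9663 in HepG2. ADH4, an alcohol dehydrogenase, read 2.76, 1.65 and 1.38 against 3159 and 3584, and ABCC2, which exports conjugates into bile, read 3.26, 5.41 and 3.13 against 2528 and 3160. For these 3 the lines were far apart at the chosen probe sets. The other kept probe set gave -2.13 for ADH4 and -3.705 for FABP1. CPS1, the first enzyme of the urea cycle, was expressed in both, at 383, 346 and 359 in HeyA8 and 880 and 1159 in HepG2, a difference of -1.18 (line term -1.47 ± 0.17, adjusted p = 0.000206).

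Among the 12 with a probe set that were not kept in either line were CYP3A4 and CYP2E1, which oxidise drugs, CYP7A1, which starts bile acid synthesis, and ABCB11 and SLC10A1, which move bile acids. The urea cycle enzyme OTC and the gluconeogenic enzyme PCK1 were not kept either. G6PC1, the final enzyme of glucose release, read 33.3, 45.6 and 67.0 in HeyA8 and 60.2 and 87.2 in HepG2, with overlap (adjusted p = 0.187). SLCO1B1, a hepatic uptake transporter, was the exception in direction, at 132, 78.7 and 89.0 in HeyA8 and 25.1 and 35.6 in HepG2, a difference of 1.94 at dim signals (limma adjusted p = 0.0134).

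Most of the measured factors of the hepatocyte network were higher in HepG2, with CEBPB and ESRRG among the exceptions. Of 24 listed, 18 had a probe set and 16 were kept, with a median of -3.35. Of these, 13 were 2-fold higher in HepG2 (against 20.8% of all kept genes), 11 of them in all 6 pairs (against 14.3%). Limma called 13 of 15 tested higher in HepG2 (against 32.3% of all genes tested) and 1, CEBPB, higher in HeyA8 (against 30.4%). FOXA2, a pioneer factor of endoderm, read 7.50, 50.3 and 13.3 in HeyA8 and 2417 and 2073 in HepG2 (difference -6.92). CEBPA, which drives metabolic genes, read 51.4, 57.7 and 47.2 against 5293 and 5905 (difference -6.37, line term -6.45 ± 0.18, adjusted p = 2.28e-07). NR0B2, a nuclear receptor that restrains bile acid synthesis, read 7.13, 7.56 and 35.3 against 1813 and 2671. In all 3, each HepG2 array stood above each HeyA8 array by a wide margin.

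The differences of FOXA1 (-3.87), FOXA3 (-3.92), GATA4 (-3.34), ONECUT2 (-3.37) and HNF4G (-2.25) were smaller. PROX1, which is needed for liver outgrowth, differed by -5.03. CEBPB, an acute-phase factor, was bright in both lines, at 9988, 8914 and 10844 in HeyA8 and 8411 and 7049 in HepG2 (difference 0.25). ESRRG, an oestrogen-related receptor, was the only factor listed that was at least 2-fold higher in HeyA8, at dim signals of 67.0, 47.1 and 36.1 against 3.62 and 23.5. It was not at least 2-fold apart in every pair. The other 6 listed factors were not analysed here.

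Mesenchymal and matrix genes were mostly higher in HeyA8, with some members the other way. Of 49 listed, 48 had a probe set and 41 were kept, with a median of 2.43. In the control pair 24 were at least 2-fold higher in HeyA8 (against 18.8% of all kept genes), and the same 24 in all 6 pairs (against 13.4%). Another 9 were higher in the HepG2 control (against 20.8%), 4 of these in all 6 pairs (against 14.3%). Limma called 26 of 40 tested higher in HeyA8, against 30.4% of all genes, and 9 higher in HepG2, against 32.3%. The HepG2 counts were thus near or below the shares of all genes. VIM, vimentin, the intermediate filament protein of mesenchymal cells, read 22006, 27515 and 23625 in HeyA8 and 87.2 and 26.1 in HepG2. CD44, the hyaluronan receptor, read 15784, 15216 and 15588 against 3.18 and 16.1, a difference of 9.97. The 11 other kept CD44 probe sets gave 2.07 to 7.64. CAV1, caveolin, read 15155, 17327 and 17640 against 4.59 and 41.9. For each, the HeyA8 arrays lay close together, and no HepG2 array was above 87.2.

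MSN, moesin, which links the membrane to actin, differed by 9.02, PLAU, the urokinase protease, by 7.76, and TNC, the matrix glycoprotein tenascin C, by 7.24. SPARC, a matrix protein that binds collagen, was bright in HeyA8 at 5342, 6464 and 5771 and present in HepG2 at 867 and 551, a difference of 2.61. FN1, fibronectin, which hepatocytes also secrete into plasma, read 23546, 28602 and 15664 in HeyA8 and 26004 and 25455 in HepG2, so the lines overlapped (line term -0.21 ± 0.22, adjusted p = 0.437). CDH2, N-cadherin, had similar signals, at 3022, 3570 and 3116 against 2743 and 2365 (difference 0.14, line term 0.34 ± 0.12, limma adjusted p = 0.0387). CDH2 is a cadherin of hepatocytes as well as of mesenchymal cells.

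Of the genes higher in HepG2, TAGLN, an actin-binding protein of smooth muscle, read 66.6, 75.3 and 54.5 in HeyA8 and 970 and 578 in HepG2 (difference -3.63). TIMP3, an inhibitor of metalloproteases, differed by -3.60, TGFBI, a matrix protein, by -2.35, and S100A4, a calcium-binding protein, by -2.36. COL1A1, a chain of collagen I, was high in only 1 HepG2 array: it read 140, 73.5 and 79.9 in HeyA8 and 820 and 145 in HepG2, and its smallest pair difference was -0.04. Its other probe sets ranged from -1.11 to 1.38. The collagens COL1A2 and COL3A1 and the proteoglycan LUM were not kept.

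The transcription factors of the mesenchymal state that passed the filter were higher in HeyA8. Of 16 listed, 15 had a probe set and 9 were kept, with a median of 6.22. All 9 were at least 2-fold higher in HeyA8 in all 6 pairs, against 13.4% of all kept genes. Limma tested 10 and called all 10 higher in HeyA8, against 30.4% of all genes tested. Below the filter were 6 with a probe set: SNAI1, PRRX1, FOXC2, MEOX2, TBX18 and TCF21. ZEB1, a repressor of CDH1, was detected in both lines, at 7145, 7427 and 8199 in HeyA8 and 1076 and 981 in HepG2 (line term 2.87 ± 0.10, limma adjusted p = 6.71e-07). ZEB2, its relative, read 466, 562 and 539 against 2.24 and 13.3. TWIST1 read 2000, 1468 and 1714 against 5.91 and 7.46, and TWIST2 read 2997, 2673 and 2489 against 3.90 and 29.6. Each HeyA8 array was above each HepG2 array in these 4 genes.

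SNAI2, another CDH1 repressor, depended on the HepG2 array: it read 1911, 2210 and 1228 in HeyA8, 2.12 in the HepG2 control and 104 in HepG2 shRNA6. Its difference was 7.03 in the control pair and as low as 3.42 in the closest pair. RUNX2, which directs bone formation, differed by 6.98, TCF4, an E-protein, by 6.22, FOSL1, a component of AP-1, by 4.30, and GLIS2, a zinc finger factor, by 2.14.

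**Figure D2:**
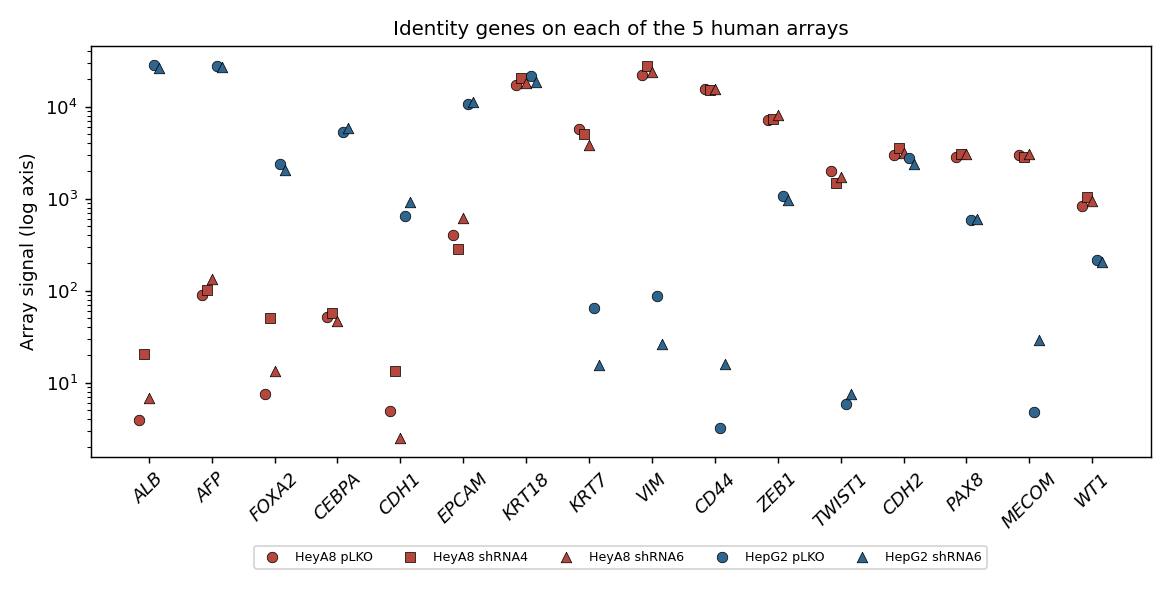
Array signal on a log axis (vertical) for 16 identity genes (horizontal axis) on the 5 human arrays, with red symbols for HeyA8 and blue for HepG2 and the shape giving the construct. ALB, AFP, FOXA2, CEBPA, CDH1 and EPCAM are high on both HepG2 arrays, VIM, CD44, TWIST1 and MECOM on the 3 HeyA8 arrays, and KRT18 and CDH2 lie close together on all 5.

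Epithelial junction and keratin genes were mostly higher in HepG2. Of 44 listed, 42 had a probe set and 34 were kept, with a median of -2.08. On the control arrays 23 were at least 2-fold higher in HepG2 (against 20.8% of all kept genes), 18 of these in all 6 pairs (against 14.3%). Another 4 were higher in HeyA8 (against 18.8%), 2 of these in all 6 (against 13.4%). Limma called 24 of 34 tested higher in HepG2 (against 32.3% of all genes tested) and 3 higher in HeyA8 (against 30.4%). CDH1, E-cadherin, the adhesion receptor of epithelia, read 4.95, 13.4 and 2.48 in HeyA8 and 655 and 914 in HepG2 (difference -5.25, line term -5.42 ± 0.37, adjusted p = 1.4e-05). EPCAM, an epithelial surface glycoprotein, read 405, 281 and 619 against 10621 and 11281. It stayed well above the array median in HeyA8, unlike CDH1.

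Genes of tight junctions and desmosomes did not all differ alike. CLDN4, a claudin, read 3.92, 6.30 and 3.69 in HeyA8 and 586 and 740 in HepG2, and DSP, desmoplakin, whose promoter is printed above, read 1392, 881 and 671 against 15477 and 12961. DSP was bright in both lines and differed by -3.46. DSG2, a desmosomal cadherin, overlapped between the lines, at 5176, 4337 and 4725 against 4318 and 4893 (limma adjusted p = 0.728). MAL2, an apical trafficking protein, differed by -7.03. JUP and CRB3, whose promoters are printed above, were higher in HepG2 too: JUP read 48.9, 14.4 and 31.1 in HeyA8 and 462 and 593 in HepG2, and CRB3 read 49.4, 52.8 and 8.32 against 371 and 420.

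The keratins did not move as a group. KRT8 and KRT18, the pair found in simple epithelia and hepatocytes, were bright in both lines: KRT18 read 17240, 20386 and 18110 in HeyA8 and 21446 and 18752 in HepG2 (limma adjusted p = 0.377). KRT8 read 7151, 8409 and 6923 against 10807 and 9135 (difference -0.59, adjusted p = 0.0209). KRT19, a ductal keratin, read 51.8, 8.58 and 128 in HeyA8 and 8521 and 4524 in HepG2, and KRT23 read 2.28, 2.47 and 1.57 against 5873 and 4030. KRT7, a keratin of ductal and Müllerian epithelia, was the reverse, at 5686, 5083 and 3873 in HeyA8 and 65.4 and 15.4 in HepG2. The other kept KRT7 probe sets gave only 0.03 to 1.44, so this difference rests on 1 probe set. SPINT2, a protease inhibitor, was also higher in HeyA8 (2.47), at dim signals.

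Factors of the epithelial state were split. Of 15 listed, 11 had a probe set and 6 were kept. FOXA1, ELF3 (-3.32) and GRHL1 (-2.74) were at least 2-fold higher in HepG2 in all 6 pairs, and KLF4 (5.37) and KLF5 (2.44) were at least 2-fold higher in HeyA8 in all 6. The other kept ELF3 probe set gave -0.78. KLF4, also a pluripotency factor, read 2926, 3393 and 2610 in HeyA8 and 58.5 and 18.1 in HepG2. The list median was -1.92, and it became 0.23 when probe sets with the suffixes _at and _a_at were preferred. ESRP1, GRHL2, OVOL1, EHF and CDX2 were not kept.

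Among markers used for the Müllerian and ovarian lineage, more were higher in HeyA8 than in HepG2. Of 21 listed, 19 had a probe set and 12 were kept, with a median of 1.5. Between the controls 7 were at least 2-fold higher in HeyA8 (against 18.8% of all kept genes), 4 of these in all 6 pairs (against 13.4%). Another 2 were higher in HepG2 (against 20.8%). Limma called 5 of 11 tested higher in HeyA8 and 3 in HepG2, against 30.4% and 32.3% of all genes tested. These HepG2 counts did not exceed the shares of all genes. PAX8, the paired-box factor of the female reproductive tract and kidney, was present in both lines at its chosen probe set. It read 2860, 3047 and 3037 in HeyA8 and 593 and 604 in HepG2 (line term 2.28 ± 0.10, limma adjusted p = 1.66e-06). Its 7 other kept probe sets gave differences of 2.14 to 5.77, so the size of its difference depends on the probe set. MECOM, a zinc finger factor amplified in ovarian cancers, read 2957, 2851 and 3082 against 4.83 and 29.1. WT1, a factor of serous carcinoma and mesothelium, read 830, 1033 and 942 against 216 and 204. SOX17 was dim, at 150, 194 and 77.2 against 1.93 and 12.3.

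FOLR1, the folate receptor used as an ovarian cancer marker, was as bright in HepG2: 1468, 1126 and 1218 in HeyA8 and 1687 and 1601 in HepG2 (difference -0.20, limma adjusted p = 0.036). KLK6, a kallikrein of ovarian cancer, did not reach the threshold in the fit (71.0, 54.7 and 38.3 against 118 and 97.4, limma adjusted p = 0.0739). MUC16, the CA125 antigen, and EMX2, PGR, CALB2, LHX9, AMHR2 and KLK7 were not kept. GATA4, which acts in gonad and liver, was higher in HepG2. Of the markers for its label, HepG2 held ALB, AFP, APOB and FOXA2 at bright signals. HeyA8 held PAX8, WT1, MECOM and FOLR1 at bright signals, but PAX8, at its chosen probe set, and FOLR1 were bright in HepG2 too. BCAM (-1.80) and GATA4 were higher in HepG2, and 7 markers with a probe set, MUC16 among them, lay below the filter.

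Growth factors and their secreted regulators were on balance higher in HeyA8. Of 71 listed, 66 had a probe set and 55 were kept, with a median of 1.01. Between the controls 28 were at least 2-fold higher in HeyA8 (against 18.8% of all kept genes), 25 of them in all 6 pairs (against 13.4%). Another 12 were higher in HepG2 (against 20.8%), 10 of them in all 6 (against 14.3%). Limma called 29 of 53 tested higher in HeyA8 (against 30.4% of all genes tested) and 10 higher in HepG2 (against 32.3%). In the control pair and by limma, the HepG2 counts were thus near or below the shares of all genes. INHBA, the activin A subunit, read 6695, 5902 and 4151 in HeyA8 and 3.20 and 9.59 in HepG2 (difference 8.73, line term 8.20 ± 0.25, adjusted p = 3.78e-07). BDNF, a neurotrophin, read 1843, 1792 and 1951 against 4.01 and 2.48. CXCL1, a neutrophil chemokine, read 6482, 7566 and 11238 against 41.7 and 27.7. These 3 were separated on every array.

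Other factors of HeyA8 included FGF2, at 823, 383 and 819 against 16.3 and 4.93, and WNT5B, a non-canonical Wnt ligand, at 1400, 2251 and 1405 against 4.33 and 8.38. BMP2, a bone morphogenetic protein, read 2200, 1877 and 2076 in HeyA8 and 17.6 and 18.5 in HepG2. Its close relative BMP4 was the reverse, at 10.6, 9.70 and 8.16 against 2667 and 1937. CCN1, a matrix-associated signalling protein, differed by 3.24, and PDGFC, a platelet-derived growth factor, by 2.74. BMP2 and BMP4 were thus high in opposite lines.

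Among the members higher in HepG2, MST1, the ligand of the receptor RON, read 18.4, 87.7 and 95.2 in HeyA8 and 5270 and 6146 in HepG2. FST, follistatin, which neutralises activin, read 231, 338 and 290 against 3621 and 4324 (difference -3.90, line term -3.81 ± 0.14, adjusted p = 6.46e-07). INHBE, a hepatic activin subunit, differed by -3.85. DKK1, a Wnt inhibitor, was bright in both, at 5846, 6654 and 7292 against 17721 and 17513. VEGFA, which drives vessel growth, differed by -1.42, and MDK, midkine, by -2.18. Secreted antagonists lay on both sides: DKK3, of the same family as DKK1, read 1659, 1471 and 1772 in HeyA8 and 19.6 and 35.0 in HepG2, and the BMP antagonists NOG and GREM1 were higher in HeyA8 by 3.79 and 6.50.

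Receptors differed in both directions. Of 88 listed, 82 had a probe set and 72 were kept, with a median of -0.26. On the control arrays 24 were at least 2-fold higher in HeyA8 (against 18.8% of all kept genes), 21 of them in all 6 pairs (against 13.4%). Another 31 were higher in HepG2 (against 20.8%), 24 of them in all 6 (against 14.3%). Limma called 31 of 71 tested higher in HeyA8 (against 30.4% of all genes tested) and 33 higher in HepG2 (against 32.3%). AXL, a receptor tyrosine kinase for GAS6, read 14260, 16629 and 15965 in HeyA8 and 257 and 198 in HepG2 (difference 5.73). DDR2, a collagen receptor, read 1579, 1678 and 1342 against 2.37 and 8.54, and ENG, a co-receptor for TGF-beta ligands, 1597, 2057 and 1516 against 7.26 and 9.68. EGFR read 7915, 8536 and 9217 against 141 and 94.8. The other 6 kept probe sets of EGFR ranged from -0.28 to 4.90.

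On the side of HepG2, ERBB3, a partner of other EGFR family receptors, read 34.1, 29.6 and 3.61 in HeyA8 and 6490 and 6125 in HepG2. FGFR4, the main hepatic receptor for FGF19, read 36.6, 29.2 and 45.1 against 4078 and 3960, and its co-receptor KLB, beta-klotho, 37.1, 5.08 and 14.6 against 4354 and 6156. FGFR3 read 4.63, 43.0 and 6.57 against 7074 and 6873, and its other kept probe set gave a difference of -2.73. Both chains of the asialoglycoprotein receptor, which clears desialylated proteins in the liver, were higher in HepG2: ASGR1 differed by -5.81 and ASGR2 by -8.62. INSR, the insulin receptor, read 30.4, 79.8 and 20.8 against 1232 and 1379. GHR, the growth hormone receptor and a liver gene in the body, was instead higher in HeyA8, at 747, 466 and 753 against 4.41 and 2.02. MET, the receptor of hepatocyte growth factor, was bright in both lines at 9496, 9681 and 9432 against 5127 and 5498 (difference 0.89, line term 0.84 ± 0.08, adjusted p = 7.51e-05). Its 3 other kept probe sets ranged from -0.005 to 0.88.

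FAS, the death receptor targeted by the hairpins, was present in both controls, at 2104 in HeyA8 and 1087 in HepG2 (difference 0.94). The signals were 1184 and 856 in the HeyA8 hairpin arrays and 631 in HepG2 shRNA6, so the lines overlapped once the hairpin arrays were included. Its other probe sets ranged from 0.72 to 1.13.

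**Figure D3:**
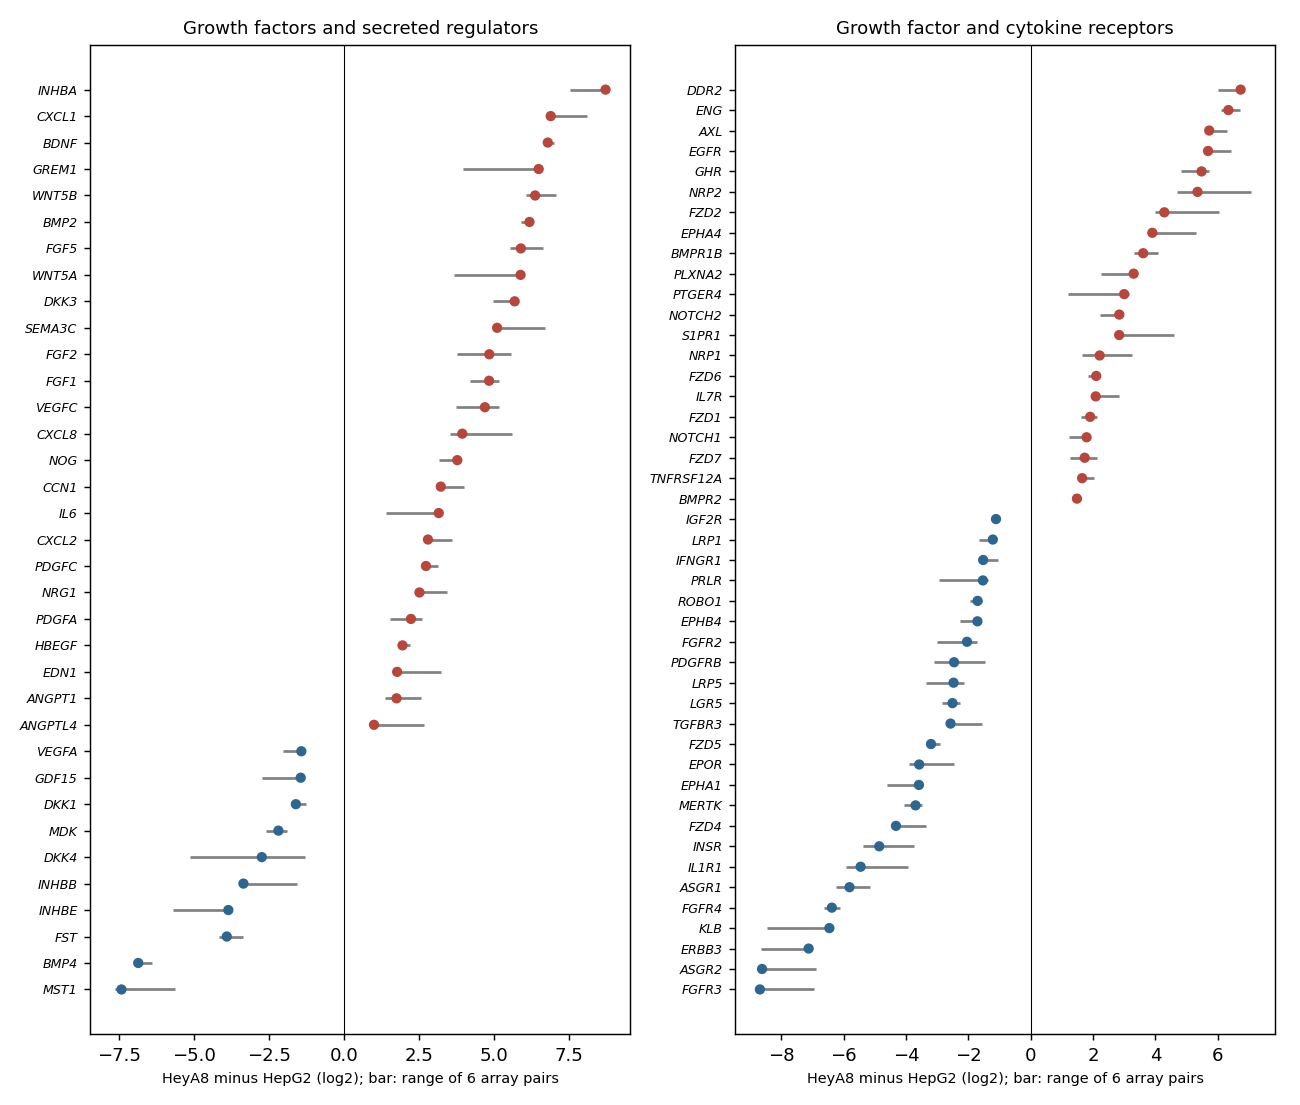
Line difference (horizontal axis, log2, HeyA8 minus HepG2) of the growth factors (left) and receptors (right) that were at least 2-fold apart in one direction in all 6 array pairs. Points are the control pair, red where higher in HeyA8 and blue where higher in HepG2, and the grey bars span the 6 pairs: INHBA (8.73) and MST1 (-7.41) lie at the ends of the left panel, DDR2 (6.73) and FGFR3 (-8.69) at those of the right.

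Integrins and matrix receptors had a median of -0.13. Of 20 kept genes, 7 were at least 2-fold higher in HeyA8 (against 18.8% of all kept genes) and 4 in HepG2 (against 20.8%). The HepG2 count was thus near the share of all kept genes. Limma called 9 of 20 higher in HeyA8 (against 30.4% of all genes tested) and 8 in HepG2 (against 32.3%). ITGA6, a laminin receptor chain, was bright in both, at 12805, 10978 and 12738 in HeyA8 and 2710 and 2724 in HepG2 (difference 2.23). ITGB4, its partner in hemidesmosomes, went the other way at dim signals (10.2, 36.6 and 18.2 against 185 and 151). ITGB1, the common beta chain, was bright in both, at 20639, 23958 and 21667 against 14438 and 13403 (difference 0.52). ITGA3 and ITGA5 were higher in HeyA8, by 2.79 and 3.13. Proteoglycans of HepG2 were SDC2, a syndecan, at 268, 219 and 244 against 10088 and 8560, and GPC3, glypican 3, a liver tumour antigen, at 22.6, 14.5 and 38.4 against 23915 and 23268.

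Most HOX genes that passed the filter were higher in HeyA8. Of 39 listed, 28 had a probe set and 17 were kept, with a median of 3.32. In the control pair 14 were at least 2-fold higher in HeyA8 (against 18.8% of all kept genes), 13 of them in all 6 pairs (against 13.4%). Limma called 14 of 17 higher in HeyA8 (against 30.4% of all genes tested) and 1 in HepG2 (against 32.3%). All 8 genes from HOXB2 to HOXB9 were at least 2-fold higher in HeyA8 in all 6 pairs: HOXB2 read 3810, 4872 and 4280 in HeyA8 and 9.59 and 11.1 in HepG2, and HOXB3 read 4113, 4081 and 3965 against 38 and 37.7. HOXB6 differed by 6.12 (-0.19 at the probe set chosen when the suffixes _at and _a_at were preferred) and HOXB7 by 5.61, and HOXB9 differed least of these, by 1.69. HOXB1 and HOXB13, at the ends of the cluster, were not kept. HOXC6 read 1102, 873 and 997 against 18.1 and 68.4, and HOXD4 read 782, 752 and 644 against 9.86 and 41.0.

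HOXD1 was the exception, at 159, 170 and 161 in HeyA8 and 2001 and 1919 in HepG2 (difference -3.55, line term -3.49 ± 0.16, adjusted p = 1.69e-06). HOXA2 was the only HOXA gene analysed here, and it was not at least 2-fold apart. HOXC5 was dim and overlapped. For the HOX list the median was 2.60 under the preferred-suffix choice of probe sets and 2.78 with the mean over probe sets, in the same direction.

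**Figure D4:**
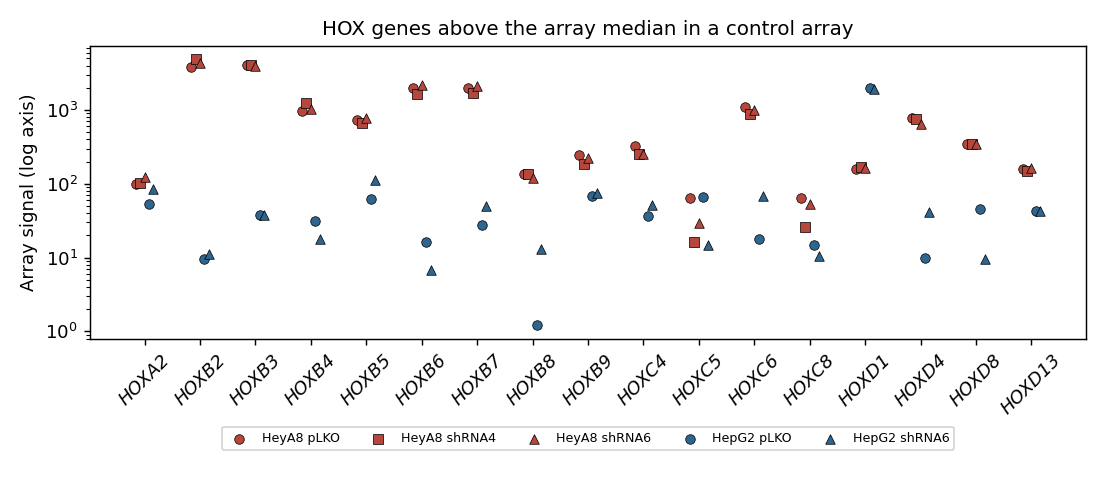
Array signal on a log axis (vertical) for the 17 kept HOX genes in cluster order (horizontal axis) on the 5 human arrays, red for HeyA8, blue for HepG2, with shape giving the construct. HOXB2 to HOXB7 lie between 672 and 4872 on the HeyA8 arrays and at or below 113 on both HepG2 arrays, and HOXD1 is reversed.

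Other lineage transcription factors were split. Of 91 listed, 83 had a probe set and 73 were kept, with a median of 0.66. Between the controls 31 were at least 2-fold higher in HeyA8 (against 18.8% of all kept genes), 26 of them in all 6 pairs (against 13.4%). Another 21 were higher in HepG2 (against 20.8%), 17 of them in all 6 (against 14.3%). Limma called 39 of 74 tested higher in HeyA8 (against 30.4% of all genes tested) and 24 higher in HepG2 (against 32.3%). By limma the HepG2 count was thus near the share of all genes tested. FOXD1, a forkhead factor of stroma, read 16359, 21532 and 21325 in HeyA8 and 33.2 and 42.0 in HepG2 (line term 8.56 ± 0.10, adjusted p = 2.48e-08). ETS1, an ETS family factor, read 15884, 14324 and 15365 against 63.8 and 49.1. ETV1 and FLI1, of the same family, differed by 7.02 and 6.63. Other kept probe sets gave 0.64 to 2.80 for ETV1, 3.49 to 3.86 for FLI1 and 1.67 to 6.1 for ETS1. The sizes of these differences thus depend on the probe set. TFAP2C, KLF2 and GATA3 were also higher in HeyA8, by 6.11, 6.38 and 3.09, though the other kept TFAP2C probe set gave 1.18.

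In HepG2, FOXQ1 read 81.8, 53.3 and 71.0 in HeyA8 and 12216 and 9096 in HepG2, and ID2, an inhibitor of basic helix-loop-helix factors, 175, 137 and 120 against 14156 and 14126. ID1, ID2 and ID3 are targets of BMP signalling: ID1 differed by -3.23, ID2 by -6.24 and ID3 by -3.03. SALL1, SOX5 and SOX9, a factor of bile ducts, differed by -4.88, -4.34 and -3.41. The immediate early genes EGR1 and FOS overlapped between lines, for FOS at 1214, 214 and 445 in HeyA8 and 488 and 176 in HepG2. The control was the highest array of its line for both genes. JUN, by contrast, did not overlap (difference 2.85).

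Oncofetal and imprinted genes separated by gene rather than as a list. Of 24 listed, 22 had a probe set and 17 were kept. Of these, 9 were at least 2-fold higher in HepG2 (against 20.8% of all kept genes) and 7 in HeyA8 (against 18.8%). Limma called 9 of 17 higher in HepG2 (against 32.3% of all genes tested) and 6 higher in HeyA8 (against 30.4%). DLK1, a fetal Notch-like ligand, read 2.98, 4.07 and 25.5 in HeyA8 and 14418 and 9326 in HepG2, though the probe set chosen with preferred suffixes gave 0.18. PEG3 and PEG10, paternally expressed imprinted genes, differed by -9.35 and -9.65: PEG3 read 13.6, 10.4 and 10.3 against 17090 and 13921. LIN28B, which blocks let-7 maturation, read 3.92, 15.3 and 4.41 against 6747 and 5900. The HepG2 arrays held the high signals for all of these.

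The IGF2BP family, RNA-binding proteins of fetal tissue, was divided. IGF2BP1 differed by -5.71, IGF2BP2 by 1.05, and IGF2BP3 overlapped, at 4764, 6281 and 5098 in HeyA8 and 5615 and 5167 in HepG2 (limma adjusted p = 0.866). HMGA1, a chromatin protein, was higher in HeyA8 (2.09). The imprinted genes PLAGL1, CDKN1C and PHLDA2 were higher in HeyA8, by 4.45, 4.65 and 2.99. The list median of -1.31 became 0.71 with the preferred suffixes and 0.01 with the mean over probe sets.

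Markers of cell types named by neither label were summed on each array. Summed over 12 leukocyte markers, the signals were 391 to 486 on the HeyA8 arrays and 20557 and 21151 on the HepG2 arrays, and LYZ, lysozyme, accounted for 20047 and 20618 of the HepG2 sums. PTPRC, the pan-leukocyte marker, was not kept. For 10 endothelial markers the sums were 3169 to 3539 in HeyA8 and 366 and 396 in HepG2. Of 4 kept, 3 were at least 2-fold higher in HeyA8 in all 6 pairs (against 13.4% of all kept genes). They were TIE1 (2283, 2479 and 2184 in HeyA8), CDH5 (825, 542 and 677) and ERG (136, 149 and 107). ERG was -0.25 at the probe set chosen with preferred suffixes. The other kept marker went the other way, with a difference of -0.74. Limma called 3 of 4 tested higher in HeyA8 (against 30.4% of all genes tested) and 1 higher in HepG2 (against 32.3%). VWF, KDR and TEK were not kept. For 10 stellate and fibroblast markers the sums were 458 to 646 in HeyA8 and 9040 and 4807 in HepG2, of which RELN, reelin, made up 8546 and 4395. Neural markers summed to 17499 to 24680 in HeyA8 and 11109 and 10493 in HepG2, mostly TUBB3. The part of other cells in the line differences was not tested. Of 14 genes with a probe set on the cancer testis antigen list, 3 were kept. MAGEA6, at dim signals, differed by -2.05. MAGED1, a MAGE family gene that was above the array median in HeyA8 too, differed by -3.26.

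Housekeeping genes centred on -0.01, from -0.63 for TBP to 1.37 for EEF1A1. Of 14, 13 were kept and 2 were at least 2-fold higher in HeyA8, against 18.8% of all kept genes. The EEF1A1 probe sets disagreed, from -0.42 to 0.67 for the others. Among all genes 2-fold apart in all 6 pairs with another kept probe set, 148 of 1865 (7.9%) had a probe set of the opposite sign.

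The 15 genes with the widest smallest-pair difference in each direction are as follows. In HepG2 they were TF, APOA2, AMBP, ORM1, ALB, SERPINA1, APOH, LYZ, PEG3, FABP1, GPC3, PEG10, SELENOP, FGG and AHSG, of which 10 are plasma proteins made by the liver. In HeyA8 they were GJA1, IL13RA2, CD44, BASP1, MSN, ADAMTS1, ARHGDIB, EMP1, SRGN, ANXA1, CCDC80, LDHB, G0S2, ALDH1A3 and ESM1. GJA1, connexin 43, read 12197, 12447 and 12469 in HeyA8 and 2.38 and 2.81 in HepG2. IL13RA2, a decoy receptor for interleukin 13, read 11413, 13103 and 15029 against 2.76 and 5.76. ALDH1A3, which makes retinoic acid, read 7771, 6356 and 7320 against 5.06 and 2.18.

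LDHB, the heart-type lactate dehydrogenase subunit, read 18656, 21041 and 19631 in HeyA8 and 2.79 and 35.1 in HepG2, while LDHA, the muscle-type subunit, overlapped between the lines (difference -0.24, limma adjusted p = 0.43). G0S2, an inhibitor of lipolysis, read 18975, 15893 and 19145 in HeyA8 and 6.75 and 28.6 in HepG2.

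**Figure D5:**
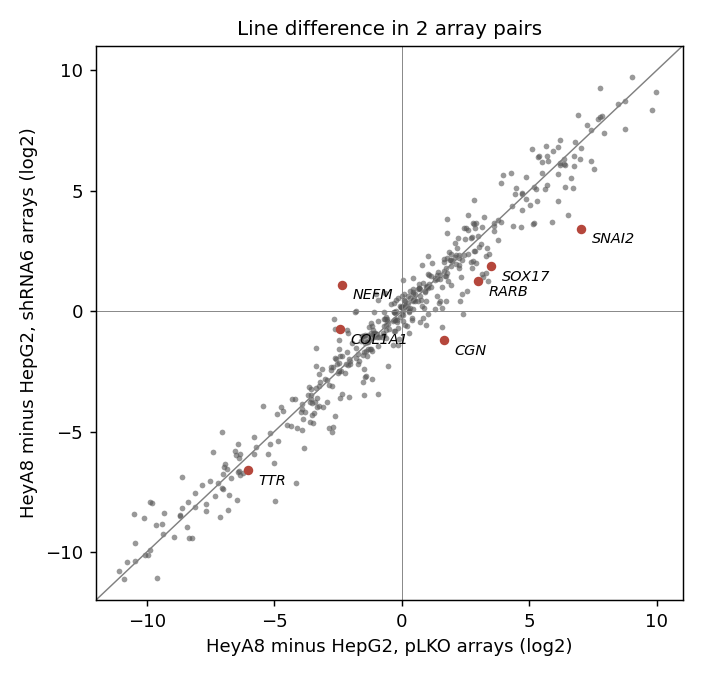
Line difference in the shRNA6 pair (vertical axis, log2) against that in the control pair (horizontal axis, log2) for 462 kept list members, each point 1 gene, with the diagonal as a grey line. In 432 of 462 the sign was the same. The lists were chosen with earlier results of these data known, and this share was not computed over all kept genes. By the stricter measure of one sign in all 6 pairs, 76.2% of all kept genes passed. The 7 named red points were picked after their values were seen, SNAI2, COL1A1 and CGN among them.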

How the data were processed

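RNA of 5 human samples (3 HeyA8, 2 HepG2) was hybridised to Affymetrix arrays, 1 array per group. The authors deposited linear array intensities, computed with MAS5 according to the submitters' processing notes. Its version is not given in the sources used. Every array had a 2% trimmed mean of 500.07, a scaling already in the deposited intensities. The 2 mouse columns were not used. Precision is limited by how few arrays there are.

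Of 54675 probe sets, 62 were controls and were left out. In the platform annotation 41097 had 1 symbol, 1801 several and 11721 none. RefSeq matched 41043 symbols and updated 0. One probe set stood for each of 19775 genes, the brightest on average, and _x_at sets only for genes without others. Differences were taken on log2(intensity + 12.6), where 12.6 is the 25th percentile of the table. A gene was kept (13062) when a control array was above its own median, and counted at 2-fold.

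The limma 3.58.1 fit in R 4.3.3 (line plus knockdown, trended prior, 2 residual and 5.26 prior degrees of freedom) used 12811 genes above the array median on at least 2 of 5 arrays. It called 8473 genes at an unadjusted p under 0.05. The fit was also run on simulated data with independent noise and few genes changed. These data differ in both respects, so that run does not bear on the p-values given here. Python 3.11.15, pandas 2.3.3, numpy 2.4.6 and matplotlib 3.10.9 were also used.

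Named by rule were a fixed set of identity genes, the 15 genes per direction with the largest difference in their closest array pair among those above the 75th percentile in the higher line, up to 8 members per list and direction by the same measure, and members at least 2-fold against their list in all 6 pairs. Any other gene named was chosen after its values were seen. The members and lists were chosen with earlier results of these data known. Alternatives were other pseudocounts, folds, filters, scalings and probe set rules, and leaving out arrays.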

Additional observations from a re-analysis of the deposited data

Results flagged for a closer look

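CGN, cingulin of the tight junction, and NEFM, a neurofilament protein, had opposite signs in the control pair and in the shRNA6 pair. For CGN the difference HeyA8 minus HepG2 was 1.64 in the pLKO pair and -1.22 in the shRNA6 pair. Its signals were dim, at 67.5, 82.6 and 15.2 in HeyA8 (pLKO, shRNA4, shRNA6) and 13.2 and 52.2 in HepG2 (pLKO, shRNA6). For NEFM it was -2.36 in the pLKO pair and 1.08 in the shRNA6 pair, from 2.67, 5.65 and 53.8 in HeyA8 and 65.9 and 18.8 in HepG2. The difference between the pairs was not tested for either gene, since each pair is 1 array against 1.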

How the results depend on the processing

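The labels give no replicate numbers to pair by, but the pLKO and shRNA6 arrays can be matched across the lines by construct. A fit with the construct as a block over the 4 pLKO and shRNA6 arrays, chosen after seeing the data, called 3842 genes higher in HeyA8 and 4223 higher in HepG2, the same model as leaving out HeyA8 shRNA4. Each other alternative was planned except leaving each array out of the pair check, which was chosen after seeing the data. Counts moved with the threshold: in the control pair 1489 (HeyA8) and 1678 (HepG2) with the 75th-percentile filter and 1265 and 1262 at 4-fold, and in all 6 pairs 938 and 913 at 4-fold and 2816 (HepG2) at 1.5-fold. Leaving out 1 array gave 1815 to 2008 and 1985 to 2093 in the pairs, and 2780 to 3842 and 2738 to 4223 for the limma line term, with the lowest HepG2 count of 2738 without HepG2 shRNA6. No list median moved beyond the spread over the 6 pairs with quantile normalization or equal array medians; the median of all kept genes was -0.07, and -0.13 with equal medians. With a pseudocount of 1 the medians were -8.65 (hepatocyte secreted), -4.04 (hepatocyte enzymes), -3.62 (hepatocyte factors), 7.17 (mesenchymal factors), -2.31 (epithelial junction), -3.13 (cancer testis) and 5.2 (endothelial). With a pseudocount of 50 they were -6.41, -2.11, -2.47, 5.0, -1.29, -1.06 and 2.79 in that order, and 1.82 (mesenchymal and matrix), -1.52 (epithelial factors), 0.94 (ovarian), 0.71 (growth factors), 2.11 (HOX) and -0.48 (stellate). With the mean over probe sets they were -6.35, -2.60, -1.92, 4.30 and -1.73 for the first 5 lists, 1.83 (matrix), -0.83 (epithelial factors), 0.93 (ovarian), 0.62 (growth factors), 2.78 (HOX), 2.54 (endothelial), -0.27 (stellate), 0.81 (neural) and, reversed, 0.008 (oncofetal). With _at and _a_at probe sets first they were -6.09 (hepatocyte secreted), 1.83 (matrix), 2.60 (HOX), 0.86 (endothelial), 0.66 (neural) and, with the sign changed, 0.51 (stellate, -0.70 in the main setting), 0.23 (epithelial factors) and 0.71 (oncofetal). The same choice reversed DLK1 (0.18), ERG (-0.25), HOXB6 (-0.19) and MAF (1.10), which then rest on a dimmer probe set. Of 194 named genes, 134 moved with a pseudocount of 50, 104 with 1, 108 with the mean over probe sets, 31 with suffixes first, 5 with equal medians and 1 with quantile normalization. The integrin and housekeeping medians, near 0, changed sign under some settings. What caused the moves was not tested.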

Other observations

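The following were looked at after the values were seen. MTAP, which recycles methylthioadenosine, read 6.08, 4.04 and 6.94 in HeyA8 (pLKO, shRNA4, shRNA6) and 842 and 812 in HepG2 (pLKO, shRNA6), a difference of -5.52 (line term -5.52 ± 0.32, limma adjusted p = 5.93e-06). Of its 5 other probe sets, 3 were higher in HepG2 on both arrays (such as 7.48, 2.03 and 4.58 against 805 and 756), and 2 overlapped between the lines at 63.0 or less on all 5 arrays. Its neighbour on chromosome 9, CDKN2A, a cell cycle inhibitor, read 7.05, 6.03 and 3.15 against 86.0 and 61.8. Another CDKN2A probe set read 64.2, 31.8 and 56.4 against 227 and 194, and the one left stayed at or below 7.35 on all 5 arrays.

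By chromosome, the genes of chromosome 8 had a median of 0.56 over 477 kept genes, and 28.3% of them were at least 2-fold higher in HeyA8 in all 6 pairs against 13.4% of all genes. Chromosomes 16 (577 genes) and 20 (372 genes) had medians of -0.74 and -0.67, with 22.7% and 24.5% at least 2-fold higher in HepG2 in all 6 pairs against 14.3% of all genes. The shRNA6 pair gave 0.62, -0.64 and -0.67 for the same 3 chromosomes. Among runs of neighbouring kept genes that were all 2-fold apart one way in all 6 pairs, the longest was on chromosome 17, 9 genes from HOXB3 to HOXB9. The metallothioneins MT2A, MT1E, MT1F, MT1H and MT1X, which bind zinc and copper, formed a run of 5 higher in HeyA8 with a median of 1.93, and they share sequence, so their signals may not be separate. ATP11A to PROZ, with the clotting factors F7 and F10, formed a run of 6 higher in HepG2 with a median of -2.83.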
